A study of Homo sapiens with 9 samples.

Results

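The comparison set 3 arrays labelled R1881 against 3 arrays labelled vehicle, 6 of the 9 arrays of a study of LNCaP cells. LNCaP is a human prostate cancer line from a lymph node metastasis that depends on androgen. All cultures were first starved of hormone for 2 days in 10% serum stripped of steroids with charcoal. The vehicle label stands for ethanol plus DMSO for 24 h. The R1881 label stands for 1 nM R1881, a synthetic androgen that cells do not metabolise, plus DMSO. The time of that group is given as 6 h in the array titles and as 24 h in their descriptions and protocols, so it is not settled. The arrays were chosen by title, the 3 arrays with 20 µM gedunin plus R1881 were left out, and the members of a group are marked as biological replicates of 1 cell line.

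Androgens act on transcription through androgen response elements in enhancers and promoters. In luminal prostate cells the hormone drives genes of secreted proteins such as prostate-specific antigen, together with the machinery that makes, modifies and exports them, lipid synthesis and polyamine synthesis. It also lowers a smaller set of genes, among them enzymes that inactivate androgen.

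Known androgen-induced genes were lower, and known androgen-repressed genes higher, on the arrays labelled R1881 than on those labelled vehicle. FKBP5, a co-chaperone of steroid receptors and a textbook androgen target, had intensities of 1796, 1970 and 1679 on the 3 vehicle-label arrays and 43.3, 48.8 and 43.3 on the 3 R1881-label arrays. ACKR3, a chemokine receptor gene repressed by androgen, had 37.3, 36.04 and 44.8 against 989, 957 and 1020. The groups were far apart for both genes, and in each the direction was the opposite of the one known for an androgen. Every direction below is therefore stated by label, as R1881 label minus vehicle label, and the source of this contradiction was not tested.

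Across 11963 genes, 3342 (27.9%) differed between the labels, 1848 (15.4%) higher and 1494 (12.5%) lower on the R1881-label arrays. A gene is said to be called where limma, a linear model with moderated variances, gave a Benjamini-Hochberg adjusted p under 0.05 over all genes. Most calls were small, with 2330 (69.7% of them) under 1.5-fold. At 2-fold or more, 156 genes (1.3%) were higher and 242 (2.02%) lower, at 4-fold or more 26 and 55, and at 8-fold or more 9 and 18. The 3 values of a group did not overlap those of the other in 4759 genes (39.8%), including 3326 of those called. Calls were more frequent among bright genes, 5.73% in the dimmest 2393 genes (median intensity 18.4) and 57.2% in the brightest 2393 (median 502). The list counts below are to be read beside these shares and those of all genes, which some lists do not exceed. The median log2 fold change of all genes was 0.00. For 634 called genes, 102 of them changed at least 2-fold, the group with the lower mean lay under 52.4, the lowest median of an array, and such folds are approximate wherever they appear below.

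**Figure D1:**
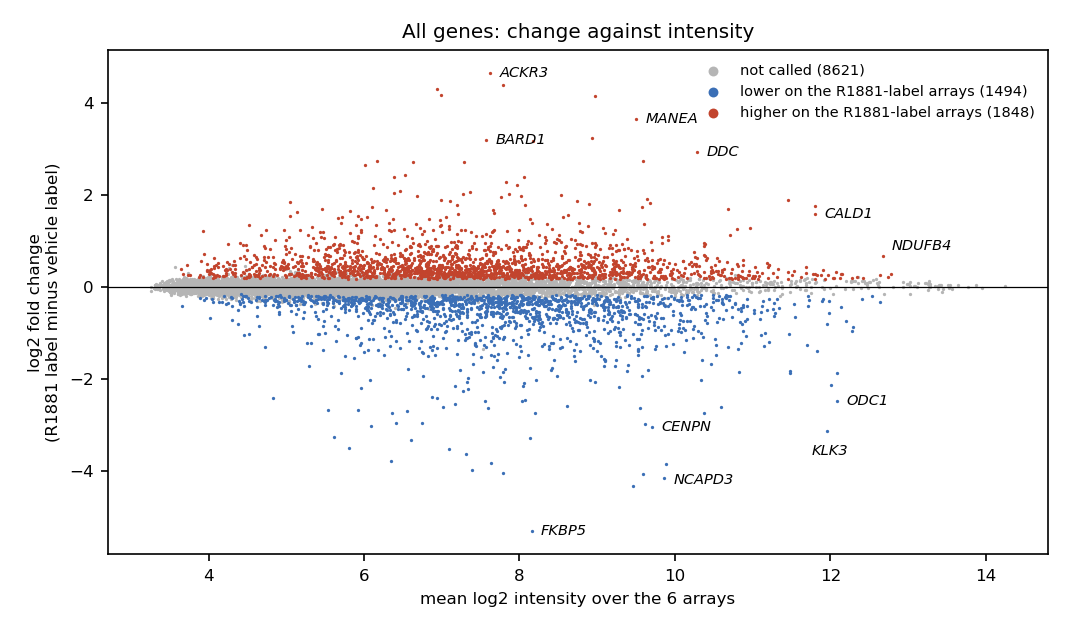
Log2 fold change (R1881 label minus vehicle label) of each of the 11963 genes against its mean log2 intensity over the 6 arrays; blue and red points were called lower and higher by limma and grey points were not called. The large falls, with FKBP5 at -5.33 and NCAPD3 at -4.16, outnumber the large rises, led by ACKR3 at 4.66.

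Arrays of a group correlated with r between 0.996 and 0.998 over genes, and arrays of different groups with r between 0.972 and 0.975, with genes as the points, which share the same arrays. A single principal component took up 86.1% of the variance. RNA integrity, read from the ACTB control as its 3' signal less its 5' signal, was 0.12, 0.05 and 0.25 (log2) on the vehicle-label arrays and 0.14, 0.15 and 0.26 on the R1881-label arrays, so the groups overlapped. Of the 10 measured luminal prostate markers 1, KRT19, was under 52.4 on every array, while KLK3, FOXA1, HOXB13 and FOLH1 were among those above the array median on all 6 arrays. Under 52.4 on every array were 6 of 8 basal epithelial and 6 of 8 leukocyte markers, and 4 of 10 fibroblast markers. The summed intensity of the fibroblast list ran from 594 to 630 on the vehicle-label and from 577 to 644 on the R1881-label arrays. Fewer cells that make an RNA and less of it per cell cannot be told apart in bulk RNA, and a change in total RNA per cell would not show after the normalization used.

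Of the androgen-induced genes of secreted and surface proteins, 12 of 18 measured were lower and 0 higher (median log2 fold change -1.63). KLK2, a kallikrein protease of seminal fluid, measured 3242, 3338 and 2913 on the vehicle-label and 164, 145 and 160 on the R1881-label arrays. KLK3, which encodes prostate-specific antigen, measured 11947, 12290 and 11280 against 1375, 1424 and 1224. TMPRSS2, a membrane protease, measured 3220, 3298 and 2957 against 191, 190 and 179. No value of these genes on an R1881-label array came near the vehicle-label range, and their log2 fold changes were -4.34 ± 0.07, -3.14 ± 0.07 and -4.08 ± 0.06 (SE, limma adjusted p = 9.22e-10, 3.82e-09 and 7.25e-10). ORM1, an acute-phase plasma protein (-3.80), AZGP1, a secreted zinc-binding glycoprotein (-3.64), and LIFR, a cytokine receptor (-3.27), also fell.

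KLK2 and KLK3 were the only called genes of 12 measured kallikreins. The other 10 lay between -0.20 and 0.12 on the log2 fold scale, and 5 of them were under 52.4 in both groups. The 3 probe sets of KLK2 ran from -5.48 to -1.69 and both of KLK3 were called lower, though probes of these close paralogs may share signal. RefSeq promoter windows (GRCh38.p14, 250 bases before to 50 after the start) of both genes held a match to the androgen response element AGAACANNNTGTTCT, sought on both strands with up to 3 mismatches. They are shown because these kallikreins moved together; capitals mark the match, which has 3 mismatches in KLK2 and 2 in KLK3.
KLK2, chr19:50873238-50873302, plus strand: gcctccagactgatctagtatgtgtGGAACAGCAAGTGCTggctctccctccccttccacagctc
KLK3, chr19:50854720-50854784, plus strand: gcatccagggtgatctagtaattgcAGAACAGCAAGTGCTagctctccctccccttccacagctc
The match ends 162 bases before the start in KLK2 and 156 before it in KLK3, and the printed stretches agree at 57 of 65 bases. With up to 3 mismatches, and with KLK2 and KLK3 counted, matches were in 12 of 201 windows (5.97%) of genes called at least 2-fold lower, 9 of 121 (7.44%) of those called at least 2-fold higher and 694 of 9563 (7.26%) of all genes tested. With up to 2 mismatches they were in 3 (1.49%), 1 (0.826%) and 65 (0.68%) of these windows, KLK3 included, counts too small to compare.

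Androgen-induced regulators of transcription and signalling were lower in 17 of 20 and higher in 1 (median -1.78). After FKBP5 (-5.33 ± 0.08, SE, limma adjusted p = 6.49e-10), the lead was taken by EAF2, an elongation factor partner (-4.05), MAF, a leucine zipper transcription factor (-3.99), and NDRG1, a gene tied to differentiation and hypoxia (-3.85). NDRG1 measured 3652, 3263 and 3829 on the vehicle-label arrays and 215, 257 and 276 on the R1881-label arrays. The 3 probe sets of MAF ran from -3.99 to -0.73. KLF9, a Krüppel-like factor, was the member that went the other way (0.25).

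Of the androgen-induced metabolic and trafficking genes 21 of 23 fell and 1 rose, TMPO (0.63), with a median of -1.84. GNMT, glycine N-methyltransferase, which uses up methyl groups, measured 746, 774 and 738 against 52.1, 57.4 and 48.8. NCAPD3 and CENPN, which act on mitotic chromosomes and are described with the cell cycle genes, also belong to this list. MICAL1, an enzyme that oxidises and disassembles actin, measured 487, 426 and 488 against 35.5, 43.4 and 42.4 (-3.53 ± 0.09, SE, limma adjusted p = 7.38e-09). The groups did not overlap for GNMT, NCAPD3, CENPN or MICAL1.

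Androgen-repressed genes were higher in 18 of 22 and lower in 0 (median 2.07). BCHE, butyrylcholinesterase, measured 28.6, 25.4 and 28.9 on the vehicle-label and 529, 537 and 588 on the R1881-label arrays. CAMK2N1, an inhibitor of CaM kinase II, measured 131, 110 and 116 against 2130, 2040 and 2195. GASK1B, a Golgi-associated kinase-like protein, rose by 4.40, ACKR3 by 4.66, BCHE by 4.32 and CAMK2N1 by 4.15 (log2). PEG3, an imprinted zinc finger gene of the list, had 157, 163 and 157 against 1573, 1460 and 1464 (3.24), with its other probe set at 3.55. ACKR3, GASK1B, BCHE, CAMK2N1 and UGT2B17 were the 5 that rose at least 16-fold, against 5 that fell as far.

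The UGT2B enzymes, which attach glucuronic acid to androgens, did not move as a family. UGT2B17 measured 30.5, 32.7 and 26.2 against 509, 513 and 606, and UGT2B15 105, 94.5 and 87.5 against 871, 918 and 823. UGT2B28 went the other way with 185, 209 and 166 against 89.1, 105 and 87.0 (-0.99 ± 0.10, SE, limma adjusted p = 5.55e-05), and UGT2B4 was dim on all 6 arrays. Their sequences are so alike that probes may detect more than 1 of them, and the 3 probe sets of UGT2B15 ran from 0.20 to 3.19. Among 22 steroid-converting enzymes only 4 were called, HSD17B11 (-1.23), SRD5A1, a 5-alpha reductase (-0.51), and HSD17B4 (-0.48) lower and HSD17B12 (0.41) higher.

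**Figure D2:**
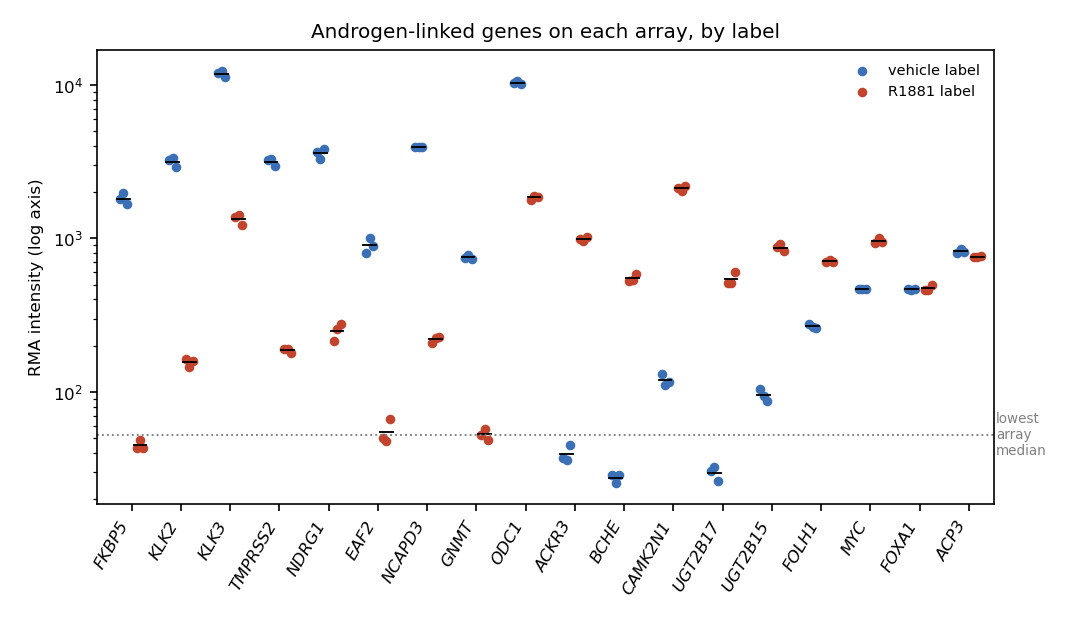
Intensity on each array (log axis) of 18 androgen-linked genes, with 3 points per label, a bar at each group mean, and a dotted line at 52.4, the lowest array median. FKBP5 to ODC1 are lower on all 3 R1881-label arrays, ACKR3 to MYC are higher, and FOXA1 and ACP3 lie within 1.1-fold.

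Cofactors of steroid hormone action moved less, with 11 of 29 higher, 3 lower and a median of 0.09; without vehicle-label replicate 3 or R1881-label replicate 2 only 7 were higher. NCOA2, a p160 coactivator, measured 216, 224 and 219 against 501, 514 and 575 (1.27 ± 0.07, SE, limma adjusted p = 6.15e-07). GATA2 (0.98) and HOXB13 (0.60), transcription factors that act at androgen-responsive enhancers, were higher, and PIAS1, a SUMO ligase, was lower (-0.79). The 3 probe sets of GATA2 ran from 0.09 to 0.98 and the 4 of NCOA2 from 0.21 to 1.37. FOXA1, the pioneer factor, measured 466, 460 and 470 against 464, 461 and 498, with overlapping groups (0.03 ± 0.06, SE, limma adjusted p = 0.793). Of 30 nuclear receptors 5 were higher (16.7%) and 2 lower (6.67%), against 15.4% and 12.5% of all genes. None of these receptors reached 2-fold, and 16 of the 30 were under 52.4 in both groups. The 10 luminal markers split, 4 lower (KRT8, KRT18, KRT19 and KLK3) and 4 higher (FOLH1, HOXB13, EPCAM and CDH1). KRT19 was under 52.4 in both groups, and the other probe set of CDH1 stood at -0.12. FOLH1, prostate-specific membrane antigen, measured 278, 264 and 262 against 698, 726 and 699, though the probes may also detect its near-identical paralog. ACP3, prostatic acid phosphatase, was at 801, 856 and 811 against 750, 759 and 768 and was not called (-0.12 ± 0.05, SE, limma adjusted p = 0.163).

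The machinery of the secretory pathway was lower on the R1881-label arrays at most of its early steps, and the pattern changed at the Golgi enzymes. At the entry to the endoplasmic reticulum (ER), 15 of 22 genes of the signal recognition particle, translocon and signal peptidase were lower and 1 higher (median -0.62). SSR1, SSR2 and SSR3, subunits of the translocon-associated protein complex, were at -1.21, -1.30 and -2.06, and SPCS3, a signal peptidase subunit, at -1.51. SSR1 measured 3527, 3657 and 3665 on the vehicle-label and 1540, 1535 and 1621 on the R1881-label arrays (limma adjusted p = 2.62e-07). SRP19, which scaffolds the signal recognition particle, was at -1.27, while SRP9 of the same particle was higher (0.28).

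N-glycans are built on a lipid carrier and moved to the nascent protein by oligosaccharyltransferase, and 15 of 21 genes of these steps were lower with 1 higher, ALG6 (0.39; list median -0.44). STT3A, the catalytic subunit, measured 1443, 1585 and 1526 against 750, 753 and 813 (-0.98 ± 0.06, SE, limma adjusted p = 2.55e-06). RPN1 (-0.94) and DAD1 (-0.71), further subunits, and DPM3 (-0.79) and DOLK (-0.58), which supply the dolichol-linked sugars, followed. No member of this list reached 2-fold.

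Enzymes that supply nucleotide sugars were lower in 10 of 19 and higher in 3, UGP2 (0.27), GALK1 (0.24) and GALT (0.39) of galactose use (median -0.37). UAP1, which makes UDP-N-acetylglucosamine and is itself androgen-induced, measured 3292, 3579 and 3389 against 485, 513 and 541 (-2.74 ± 0.06, SE, limma adjusted p = 3.89e-09). GFPT1, the entry enzyme of the same pathway, was at -1.24, NANS of sialic acid synthesis at -1.57, GMPPA at -1.19 and UGDH, which makes the UDP-glucuronic acid that UGT enzymes use, at -1.15. UGDH fell in the samples where UGT2B15 and UGT2B17 rose.

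Glycan trimming and branching enzymes did not move together: 7 of 26 were lower and 4 higher (median -0.04). MANEA, a Golgi endomannosidase, measured 202, 222 and 191 on the vehicle-label arrays and 2423, 2495 and 2807 on the R1881-label arrays, and also stands in the androgen-repressed list (3.65 ± 0.08, SE, limma adjusted p = 3.07e-09). FUT8, which adds core fucose, was at 1.08, while B4GALT1 (-0.82) and MGAT2 (-0.51), which extend the antennae, were lower. Mucin-type O-glycosylation was likewise split, 3 of 16 higher and 4 lower, and within the GalNAc-transferase family that starts these chains GALNT3 (1.61) and GALNT10 (0.76) were higher and GALNT7 (-1.15), GALNT1 (-0.32) and GALNT2 (-0.23) lower. GALNT3 measured 110, 124 and 116 against 339, 364 and 365, yet its other probe set stood at 0.03. ST3GAL1, which caps O-glycans with sialic acid, was higher (1.10).

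ER chaperones and disulfide enzymes were lower in 21 of 30 and higher in 2 (median -0.69). DNAJB9, a co-chaperone of BiP, measured 739, 805 and 742 against 112, 115 and 113 (-2.75 ± 0.06, SE, limma adjusted p = 2.72e-09). DNAJC10, a disulfide reductase of the same family, was at -1.97, MANF at -1.49, SDF2L1 at -1.48 and PDIA4 at -1.34. HSPA5, which encodes BiP itself, changed less, 5218, 5500 and 5056 against 2885, 3095 and 3085 (-0.80 ± 0.06, SE, limma adjusted p = 7.57e-06). ERP29 (0.22) and FKBP9 (0.46) were the higher ones.

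Of the unfolded protein response sensors and factors, 8 of 15 were lower and 0 higher (median -0.31). EIF2AK3, the sensor PERK, was at -1.10, CREB3L2 at -1.31, WFS1 at -0.86 and XBP1 at -0.69. ATF4 was at -0.35, and DDIT3, its proapoptotic target CHOP, was not called at 214, 208 and 192 against 217, 220 and 178. In ER-associated degradation 10 of 21 genes were lower and 1 higher, ERLIN2 (0.74), with UBE2J1 (-1.86), HERPUD1 (-1.68), EDEM3 (-1.47) and EDEM1 (-1.03) in front.

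Promoters of these genes were searched for the ER stress response element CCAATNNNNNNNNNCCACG, bound by NF-Y and ATF6, with no mismatch and on both strands. It was in 12 of 9563 windows (0.126%) of all genes tested and in 6 of 26 (23.1%) of the chaperone list. Among members called lower it was in 5 of 19 windows (26.3%), and these windows are part of the 26. Such overlapping sets cannot show whether the element went with the list or with the calls. In genes called at least 2-fold lower it was in 3 of 201 windows (1.49%). In those called at least 2-fold higher it was in 0 of 121, and these counts are too small to compare. The matches of this list and of XBP1 are shown. Capitals mark the element, which reads CCAAT first or, on the other strand, ends in ATTGG.
HSPA5, chr9:125241366-125241434, minus strand: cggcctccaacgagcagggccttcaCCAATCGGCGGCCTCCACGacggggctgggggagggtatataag
HSP90B1, chr12:103930191-103930259, plus strand: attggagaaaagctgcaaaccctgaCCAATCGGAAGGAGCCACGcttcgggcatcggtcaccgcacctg
HSP90B1, chr12:103930296-103930364, plus strand: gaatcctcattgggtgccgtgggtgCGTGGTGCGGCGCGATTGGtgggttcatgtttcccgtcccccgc
CALR, chr19:12938359-12938427, plus strand: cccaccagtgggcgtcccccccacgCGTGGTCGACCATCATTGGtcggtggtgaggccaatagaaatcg
CANX, chr5:179698753-179698821, plus strand: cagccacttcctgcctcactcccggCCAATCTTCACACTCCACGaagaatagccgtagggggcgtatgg
CRELD2, chr22:49918529-49918597, plus strand: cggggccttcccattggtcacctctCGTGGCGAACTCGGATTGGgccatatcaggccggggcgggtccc
ERO1B, chr1:236282158-236282208, minus strand: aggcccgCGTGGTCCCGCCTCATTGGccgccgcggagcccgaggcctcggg
XBP1, chr22:28800578-28800646, minus strand: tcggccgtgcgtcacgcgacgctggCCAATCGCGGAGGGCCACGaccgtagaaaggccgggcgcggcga
Log2 fold changes of these genes were -0.80 for HSPA5, -0.73 for HSP90B1, -0.44 for CALR, -0.43 for CANX, -1.20 for CRELD2 and -0.69 for XBP1. ERO1B holds the element and was not called (0.10), and the genes with the largest falls of the list, DNAJB9 and DNAJC10, have no exact match in the window.

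Export from the ER had the highest count of these steps: of 38 genes of the COPII coat and its cargo receptors 30 were lower and 1 higher, LMAN2L (0.22; median -0.64). SEC24D, a cargo-selecting coat subunit, measured 224, 197 and 220 against 30.8, 28.5 and 36.4, but its 3 probe sets ran from -2.75 to -0.25. SEC24B, its paralog, was at -1.29 (limma adjusted p = 7.75e-07), LMAN1, the receptor that carries glycoproteins out of the ER, at -1.24, ERGIC2 at -1.26 and TMED9, which measured 1806, 1848 and 1767 against 667, 673 and 690, at -1.42. COPI, Golgi matrix and retrieval genes followed with 23 of 36 lower and 4 higher (median -0.50). They included GOLGA4 (-1.18), COPG1 of the COPI coat (-1.18), ARFGAP3 (-1.11) and GOLGA2 (-0.96), and the higher ones were ARFGEF1 (0.58), TMF1 (0.30), COG4 (0.23) and ARF5 (0.20).

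Genes of granules and exocytosis, the last step, were split with 6 of 24 lower and 5 higher (median -0.01). RAB27A, a GTPase that docks secretory vesicles, measured 294, 338 and 334 against 70.5, 84.9 and 90.0 (-1.98 ± 0.10, SE, limma adjusted p = 4.3e-07), and RAB3B was at -1.44. MYRIP, which links RAB27A to myosin, went the opposite way with 39.0, 40.0 and 36.7 against 188, 235 and 378 (2.73 ± 0.20). Its 3 R1881-label values spread over 2-fold but stayed clear of the vehicle-label values.

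**Figure D3:**
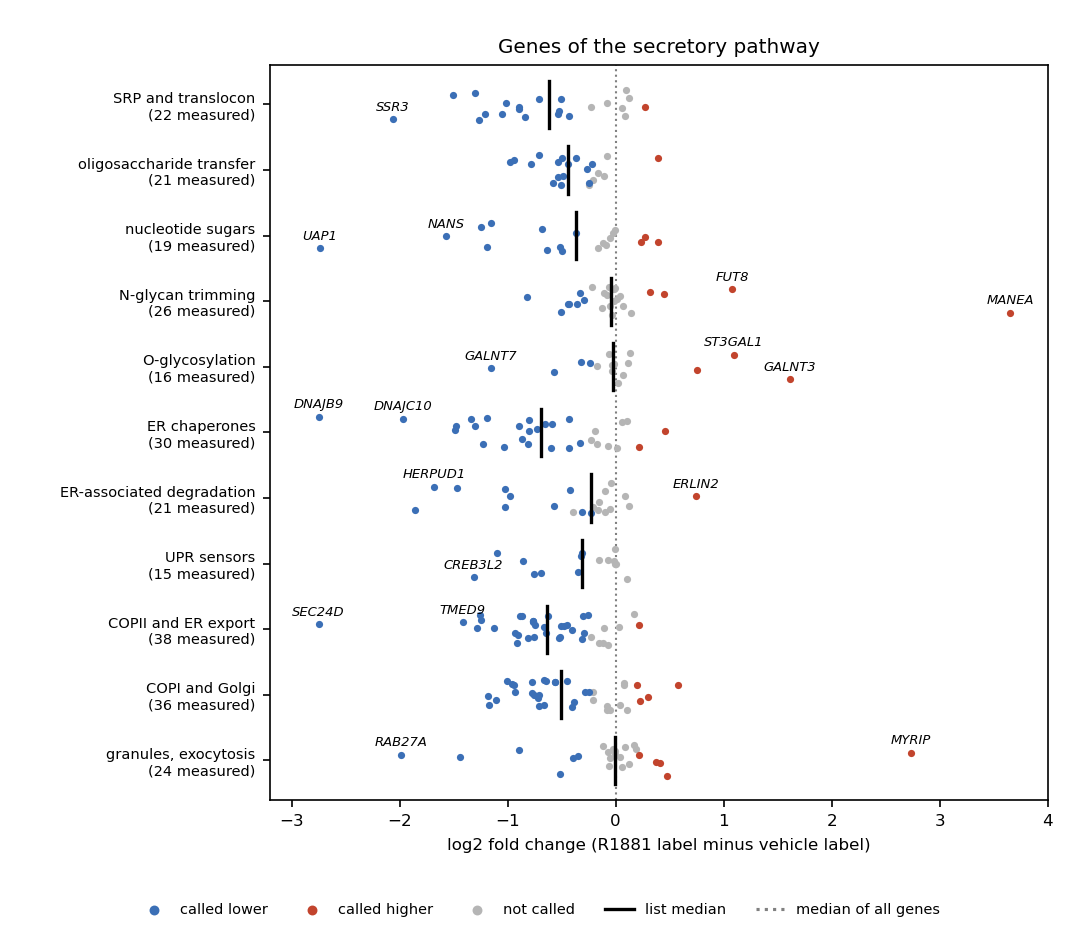
Log2 fold change (R1881 label minus vehicle label) of each measured gene of 11 lists of secretory pathway genes. Black bars are list medians and the dotted line the median of all genes. Medians lie at -0.62 for the translocon, -0.64 for COPII and -0.50 for COPI genes but at -0.04 for N-glycan trimming and -0.01 for exocytosis genes.

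Of 26 sterol genes 18 were lower and 2 higher (median -0.67). INSIG1, which retains the sterol sensor in the ER, measured 1014, 1067 and 1006 against 238, 234 and 262 (-2.07 ± 0.06, SE, limma adjusted p = 2.41e-08). Its paralog INSIG2 went the other way, 79.0, 64.9 and 59.8 against 167, 147 and 182 (1.29 ± 0.11, SE, limma adjusted p = 1.86e-05). The sensor gene SCAP was at -1.31, the transcription factor genes SREBF2 and SREBF1 at -0.78 and -0.40, IDI1 at -1.71 and HMGCS1 at -1.43. TM7SF2, a sterol reductase, was the other higher member (1.01).

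Fatty acid synthesis had 9 of 16 genes lower and 1 higher, ELOVL6 (0.90; median -0.35). FASN, fatty acid synthase, measured 1046, 857 and 1075 against 302, 294 and 307, with its other probe set at -0.13. ELOVL5 (-1.29), FADS2 (-1.23), SCD (-1.04) and ACACA (-0.94), which elongate, desaturate and start the chains, were also lower. Fatty acid oxidation showed no common direction, with 11 of 26 higher and 9 lower (median 0.05). The peroxisomal enzymes ECI2 (-1.49) and ACAA1 (-0.76), the carnitine carrier SLC25A20 (-0.98) and the medium-chain dehydrogenase ACADM (-0.60) were lower, while HADHB of the mitochondrial trifunctional protein was higher, 536, 610 and 568 against 894, 894 and 860.

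Prostate epithelium is known for storing zinc and releasing citrate. Genes of the citrate cycle and zinc handling divided into 12 of 37 lower and 10 higher, the latter 5 without vehicle-label replicate 1 or 3 and 6 without R1881-label replicate 1 or 2. IDH1, which makes cytosolic NADPH, measured 2745, 2987 and 2776 against 1216, 1259 and 1159 (-1.23 ± 0.06, SE, limma adjusted p = 4.91e-07). The zinc transporter SLC39A7 of the ER and Golgi was at -1.11, OGDH at -0.74 and GOT1 at -0.62, while the zinc exporter SLC30A4 was higher (0.61).

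Polyamine and methyl-donor metabolism had 10 of 22 genes lower and 4 higher (median -0.14). The 5 members at least 2-fold lower were GNMT (-3.84), NNMT (-1.88) and the polyamine genes ODC1, SMS and SAT1. GNMT and NNMT transfer methyl groups, and the other probe set of NNMT stood at -0.40. ODC1, ornithine decarboxylase, measured 10259, 10566 and 10054 against 1779, 1891 and 1867, and SMS, spermine synthase, 1891, 1870 and 1858 against 279, 293 and 333. SAT1, which acetylates polyamines for export, was also lower (-1.84 ± 0.09, SE, limma adjusted p = 3.44e-07), so genes of synthesis and of breakdown fell alike. AZIN1, which spares ornithine decarboxylase from degradation, was higher (0.56), as were AHCYL1 (0.41), MTR (0.48) and MTRR (0.33).

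In glycolysis 5 of 28 genes were higher and 5 lower, 17.9% each, near the 15.4% and 12.5% of all genes. Both hexokinases were lower, HK1 with 888, 954 and 838 against 453, 491 and 465 and HK2 at -0.99 with its other probe set at 0.09, whereas the next committed enzyme, phosphofructokinase PFKM, was higher, 491, 486 and 483 against 875, 891 and 838. Respiratory chain subunits were higher in 15 of 51 and lower in 2 (median 0.09), at 9 without R1881-label replicate 1 or 2 or vehicle-label replicate 3 and 25 under a second quantile normalization. NDUFB4 of complex I led them (0.68) and NDUFC1 of the same complex was lower (-0.46). In the lysosome list, 10 of 38 genes were higher and 8 lower: the proton pump subunits ATP6V0B (-0.86) and ATP6V1D (-0.56) fell and the hydrolases CTSH (0.82), MANBA (0.75) and PPT1 (0.58) rose. Its lower count was 5 without vehicle-label replicate 1 or 3 or R1881-label replicate 1 or 3.

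Amino acid transporters were lower in 9 of 19 and higher in 1, SLC38A6 (0.49). SLC38A2 measured 1715, 1821 and 1744 against 907, 937 and 856 (-0.97 ± 0.06, SE, limma adjusted p = 1.9e-06), and SLC43A1 (-0.76), SLC1A5 (-0.75), SLC38A1 (-0.75) and the cystine carrier SLC7A11 (-0.70) followed. Of the amino acid synthesis list 11 of 21 were lower and 4 higher, led by VLDLR, a lipoprotein receptor that makes no amino acid (-1.17), and by GLUL (-0.65) and MTHFD2 (-0.63). Of 16 tRNA synthetases 8 were lower, TARS1 (-0.79) and GARS1 (-0.74) most, and 2 higher, EPRS1 (0.24) and KARS1 (0.30).

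**Figure D4:**
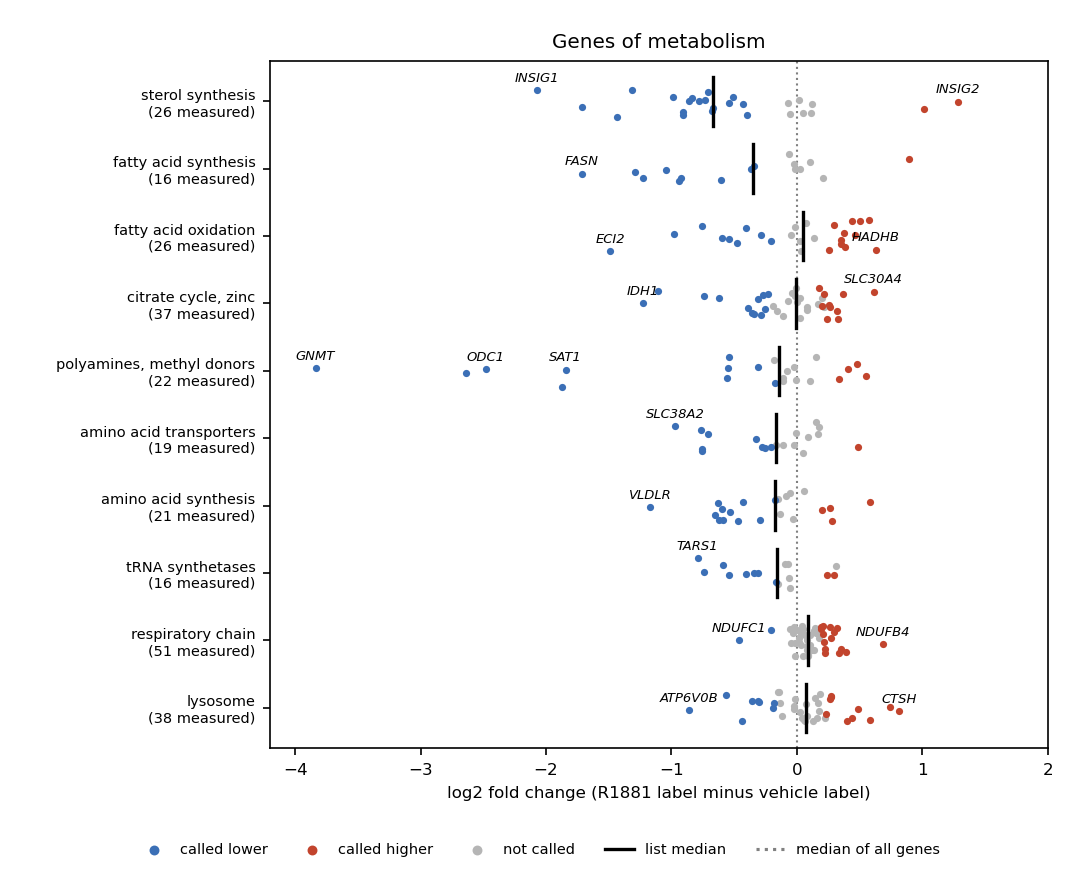
Log2 fold change (R1881 label minus vehicle label) of each measured gene of 10 metabolic lists, with black bars at list medians and a dotted line at the median of all genes. Sterol genes centre on -0.67 with INSIG2 alone near 1.29, fatty acid oxidation spreads to both sides, and respiratory chain genes lie close to 0.09.

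More cell cycle genes were higher than lower on the R1881-label arrays in each of 6 lists, while a few chromosome genes stood far below the rest. Of the mitosis list 40 of 51 were higher and 1 lower (median 0.60), 15 of them by 2-fold or more. TOP2A, topoisomerase II alpha, measured 35.3, 44.2 and 34.1 against 112, 125 and 143 (1.74 ± 0.11, SE, limma adjusted p = 3.17e-06). PBK, a mitotic kinase, measured 88.5, 93.2 and 76.9 against 243, 265 and 263. DLGAP5, a spindle protein (1.34), and RACGAP1 of the cytokinetic midzone (1.27) were next. KIF22, a chromokinesin that pushes chromosome arms outwards, was the exception, 410, 412 and 447 against 161, 164 and 155 (-1.40 ± 0.06, SE, limma adjusted p = 1.71e-07), and both of its probe sets were lower.

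The cell cycle homology region, TTTGAA or TTCGAA on either strand, is bound by MuvB complexes that time the expression of mitotic genes. It was in 31 of 42 windows (73.8%) of the mitosis list and in 1188 of 9563 (12.4%) of all genes tested. Among members called higher it was in 23 of 31 windows (74.2%), and these windows are part of the 42. Such overlapping sets cannot show whether the motif went with the list or with the calls. In genes called at least 2-fold higher, a set that includes members of this list, it was in 27 of 121 windows (22.3%). In those called at least 2-fold lower it was in 18 of 201 (8.96%). The matches before the start of 2 genes that rose and of KIF22 are shown in capitals; TTCAAA is TTTGAA on the other strand, and TTCGAA reads the same on both.
TOP2A, chr17:40418060-40418115, minus strand: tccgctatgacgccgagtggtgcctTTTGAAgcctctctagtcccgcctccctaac
TOP2A, chr17:40418017-40418072, minus strand: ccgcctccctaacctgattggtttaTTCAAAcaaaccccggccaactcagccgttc
DLGAP5, chr14:55191693-55191748, minus strand: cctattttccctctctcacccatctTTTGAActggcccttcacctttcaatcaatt
DLGAP5, chr14:55191664-55191719, minus strand: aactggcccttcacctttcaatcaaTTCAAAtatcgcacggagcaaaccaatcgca
KIF22, chr16:29790699-29790750, plus strand: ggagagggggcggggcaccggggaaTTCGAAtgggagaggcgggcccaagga
The match of KIF22 lies 27 to 22 bases before its start. The gene thus shares the motif with the rising members though its intensity fell.

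Kinetochore genes were higher in 9 of 23 and lower in 3 (median 0.20). NDC80, which binds microtubules, measured 31.0, 39.3 and 22.6 against 90.8, 74.3 and 93.5 (1.51), and OIP5 (0.92), CENPU (0.82) and ZWINT (0.81) rose as well. CENPN, which reads the centromeric nucleosome, measured 2448, 2447 and 2340 against 278, 278 and 314 (-3.06 ± 0.07, SE, limma adjusted p = 3.07e-09), and its other probe set stood at -4.72. MIS12 (-0.36) and ZW10 (-0.34) were the other lower members.

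Condensin and cohesin subunits held a wide contrast, with 11 of 18 higher and 2 lower (median 0.25; 7 higher without vehicle-label replicate 3 or R1881-label replicate 1). NCAPD3 of condensin II measured 3923, 3947 and 3905 on the vehicle-label and 207, 225 and 227 on the R1881-label arrays (-4.16 ± 0.06, SE, limma adjusted p = 6.49e-10). NCAPG of condensin I (0.69), SMC2, shared by both condensins (0.59), and RAD21 of cohesin (0.63) were higher. PDS5B, a cohesin regulator, was lower (-0.92), with 1 of its 3 probe sets at 0.06.

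Replication genes were higher in 21 of 49 and lower in 2 (median 0.18). TYMS, thymidylate synthase, measured 198, 233 and 186 against 556, 531 and 495, but its other probe set was at -0.01. GINS1 of the replicative helicase (1.12), RRM1 (0.74) and PCNA (0.73) rose, while ORC5, an origin recognition subunit, measured 350, 408 and 377 against 181, 178 and 174 (-1.09 ± 0.07, SE, limma adjusted p = 2.02e-06) and RFC1 was at -0.18. The 3 probe sets of ORC5 ran from -1.14 to -0.10. In the G1 list 11 of 29 were higher, CCNA2 (0.94), TFDP1 (0.86, other probe set 0.19), CDKN3 (0.74) and SKP2 (0.61) among them, and CDC25A (-0.54) and CDK2 (-0.45) lower. The inhibitor gene CDKN1B was higher (0.31), and CDKN1A (0.09) and CCND1 (0.17) were not called.

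DNA repair genes were higher in 20 of 54 and lower in 4 (median 0.11). BARD1 measured 52.5, 74.7 and 63.5 against 595, 628 and 515 (3.20 ± 0.12, SE, limma adjusted p = 1.01e-07). Its partner BRCA1, with which it forms a ubiquitin ligase, was not called at 70.4, 68.3 and 70.4 against 72.0, 75.5 and 64.4. The next rises of the list were RAD51AP1 (0.81), FANCI (0.73) and TDP1 (0.72), and RAD54B, a recombination motor, fell by 1.05. CDK8, a Mediator kinase outside these lists, was also among the 15 largest rises, 63.3, 64.2 and 56.3 against 365, 380 and 468.

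Splicing factors were higher in 22 of 47 and lower in 1, HNRNPF (-0.24), with small changes (median 0.17) led by PRPF3 (0.63) and SRSF3 (0.54). Ribosomal protein genes were higher in 6 of 51 (11.8%, against 15.4% of all genes) and lower in 0 (median 0.06), none above RPL27A (0.34). Their higher count was 3 without vehicle-label replicate 1 or 3 or R1881-label replicate 2, and 20 with trend and robust priors. MYC, a driver of growth, had deposited values of 467 on all 3 vehicle-label arrays, equal to the last digit, against 938, 1009 and 946, so its error is understated and no p is given. Ribosome biogenesis genes were higher in 9 of 31 and lower in 3, with POLR1D at 0.85; MXI1, a MYC antagonist held in that list, was at 1.02.

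**Figure D5:**
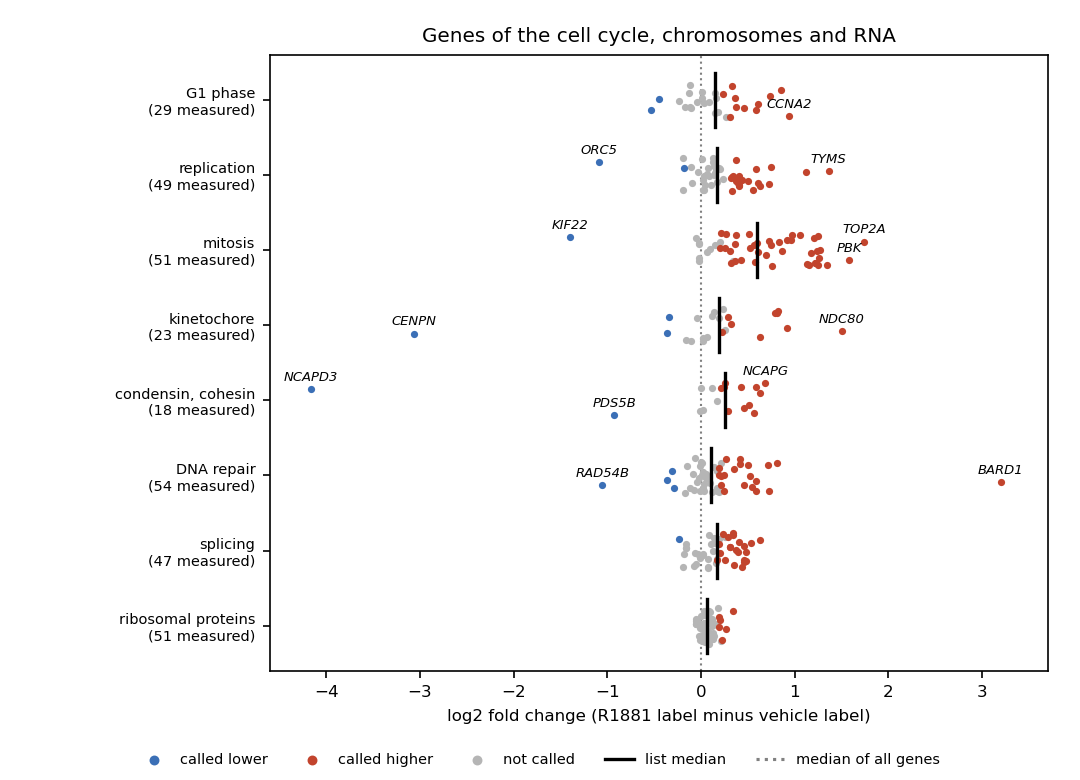
Log2 fold change (R1881 label minus vehicle label) of each measured gene of 8 lists of cell cycle, chromosome and RNA genes, with black bars at list medians and a dotted line at the median of all genes. Mitosis genes centre on 0.60 while NCAPD3 (-4.16), CENPN (-3.06), KIF22 (-1.40) and ORC5 (-1.09) lie far to the left of their lists.

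Signalling lists held members of both directions. In the PI3K, TSC and mTOR list 9 of 36 were higher and 10 lower (median 0.06). GRB10, an adaptor that restrains insulin and IGF receptors, measured 285, 303 and 307 against 2008, 2038 and 1941 (2.74 ± 0.06, SE, limma adjusted p = 2.72e-09), with all 4 probe sets at 2.14 or more. PIK3R3, a regulatory subunit of PI3K, was higher (1.49). SGK1, a kinase downstream of PI3K and of steroid receptors, measured 315, 318 and 267 against 38.1, 38.3 and 38.6 (-2.96). TSC2, the brake on mTOR, measured 1182, 1241 and 1145 against 434, 482 and 450 (-1.38), though its other probe set stood at 0.07, and IRS2 was at -1.36.

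Growth factor ligands, receptors and binding proteins were lower in 8 of 36 and higher in 3, and 18 were under 52.4 in both groups. LRIG1, which targets ERBB receptors for degradation, measured 619, 625 and 618 against 109, 97.7 and 128 (-2.48 ± 0.09, SE, limma adjusted p = 7.23e-08), and ERBB2 measured 192, 190 and 208 against 336, 399 and 341 (0.86). IGFBP3, which sequesters IGFs, was higher (0.86) and IGFBP2 too (0.35). VEGFA was lower (-1.25), and IGF1R was at -1.50 on its brightest probe set and between -2.67 and 0.01 over all 3, so its change is uncertain. Without dim genes the lower count of this list was 4.

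In the TGF-beta and BMP list 8 of 37 were higher (21.6%) and 6 lower (16.2%), against 15.4% and 12.5% of all genes. PMEPA1, a feedback inhibitor of TGF-beta signalling, measured 447, 437 and 456 against 78.6, 91.96 and 70.5 (-2.48 ± 0.09, SE, limma adjusted p = 6.97e-08), and the receptor BMPR1B was at -1.32. BAMBI, a decoy receptor, measured 70.0, 87.0 and 77.4 against 218, 228 and 230 (1.53), and SMAD1 (1.22) and its target ID3 (1.02) were higher. The other probe set of SMAD1 stood at 0.23. Frizzled receptors of the Wnt pathway divided. FZD5 measured 271, 317 and 269 against 45.9, 51.5 and 63.1 (-2.43, other probe set -0.73), while FZD3 (1.54) and FZD6 (0.60) were higher. Over the whole Notch and Wnt list, these 3 included, 5 of 34 were higher (14.7%) and 3 lower (8.82%). Neither share exceeds the 15.4% and 12.5% of all genes.

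Clock genes were higher in 5 of 17, NR1D2 (0.85), NFIL3 (0.59), PER2 (0.54, other probe set -0.15), PER3 (0.41) and DBP (0.19), and lower in 1, BHLHE40 (-0.63). Immediate early genes were higher in 5 of 27 (18.5%) and lower in 4 (14.8%), near the 15.4% and 12.5% of all genes. KLF10 (1.08), ZFP36L1 (1.06) and MYC (1.05) were above 2-fold. The 4 probe sets of ZFP36L1 ran from -0.10 to 1.06. In the BCL2 and caspase list 5 of 29 were lower (17.2%) and 3 higher (10.3%), against 12.5% and 15.4% of all genes. TNFRSF10B, the death receptor DR5, was its only 2-fold change, 930, 994 and 953 against 295, 311 and 330 (-1.62 ± 0.06, SE, limma adjusted p = 9.8e-08).

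The luminal keratin genes KRT8, KRT18 and KRT19 fell, and the basal keratin genes KRT5, KRT14 and KRT15 were dim and not called. KRT19 was dim as well, with 29.2, 31.1 and 34.9 against 16.8, 14.4 and 14.8, so its fold is approximate. KRT8 measured 2286, 2147 and 2155 against 268, 304 and 267, and its filament partner KRT18 measured 8523, 8910 and 8435 against 1925, 2107 and 1851. Their log2 fold changes were -2.98 ± 0.07 and -2.14 ± 0.06 (SE, limma adjusted p = 3.82e-09 and 2.14e-08). Junction genes went both ways: OCLN of tight junctions rose from 130, 105 and 111 to 460, 436 and 521, PKP4 was at 1.35, and CLDN8, a claudin, fell by 2.03. Over the whole keratin and junction list 10 of 33 were lower and 6 higher, the latter 3 without vehicle-label replicate 3.

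Of 35 actin and adhesion genes 10 were lower and 6 higher. After MICAL1, VCL (-1.30), a focal adhesion protein, and TPM1 (-1.23), a tropomyosin, fell, while LASP1 (1.24) and CALD1 rose. The other probe set of VCL stood at -0.26. CALD1, caldesmon, measured 1949, 2111 and 2112 against 5567, 6017 and 7033, and its 8 probe sets ran from -0.01 to 2.53. B2M, the light chain of MHC class I, fell from 5133, 5268 and 5108 to 2177, 2227 and 2031, the only 2-fold change among 34 antigen presentation and interferon genes.

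Stress and protein turnover genes gave few large changes. Proteasome subunits were lower in 13 of 32 and higher in 3, with PSMD8 (-1.13) as the only 2-fold change. Heat shock genes were higher in 9 of 36 and lower in 4, HSPA4L (1.25) and HSPA13 (-1.51) being the 2-fold changes, and HSP90AA1 was slightly higher (0.21). Of 21 NRF2-linked genes 6 were lower and 4 higher, with ABCC1, a drug efflux pump, at -1.62 and HMOX1 not called (0.03).

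Of the neuroendocrine markers, NTS, neurotensin, measured 392, 449 and 421 on the vehicle-label and 1396, 1405 and 1399 on the R1881-label arrays (1.74 ± 0.06, SE, limma adjusted p = 6.97e-08), and ENO2 was higher (0.86). The other 7 were not called; CHGA, CHGB, SCG2, SCG3 and INSM1 lay under 52.4 on every array. The summed intensity of the list, 649 to 705 against 1667 to 1679, was thus mainly that of NTS. DDC, which makes dopamine and serotonin and stands in the androgen-repressed list, measured 431, 457 and 456 against 3470, 3618 and 3306 (2.95), with its other probe set at 0.17.

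Further large changes lay outside the lists. MMP16, a membrane-type matrix metalloproteinase, was at 2.74. CSGALNACT1, which starts chondroitin sulfate chains, measured 183, 210 and 176 against 16.4, 18.2 and 15.3 (-3.51). OTULINL was at -3.34 and PAK1IP1, a nucleolar WD-repeat protein, at -3.28. Among the 175 genes that changed at least 2-fold and have several probe sets, another probe set was called in the same direction in 149 and in the opposite one in 1.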

How the data were processed

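RNA extracted with Trizol was labelled as biotinylated cRNA for Affymetrix arrays, per the labels' protocols. For each probe set and array the authors deposited a linear-scale intensity from RMA, which subtracts background, quantile-normalises and summarises by median polish, per the submitters' processing notes. No version of it is given in the sources used here. Array medians were 52.4 to 54.5, and the precision is limited by 3 arrays per group.

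Tests used log2 of the deposited intensities. The array holds 22277 probe sets, and 19064 had 1 gene symbol in the platform annotation; 12 of these had no match in the human RefSeq table (GRCh38.p14). Probe sets with several symbols or none were not named. A gene's value is its brightest probe set's over the 6 arrays. The test was limma (version 3.58.1, under R 4.3.3; lmFit, eBayes without trend), two-sided. Errors are standard errors. The test was tried on simulated data for this comparison (11963 genes) with normal noise. In them 50 genes were changed at each fold, far fewer than the 3342 genes called in the real data. Calls recovered 42% of 1.2-fold, 98% of 1.5-fold and 100% of 2-fold and 4-fold changes, with 7 false calls. The number of false calls in the real data cannot be read from this. An exact permutation test of 3 against 3 arrays cannot go below 0.1 and was not used.

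The comparison and the 58 gene lists, which share some genes, were chosen with earlier results of these data known; lists are described by counts and medians without a test. Named genes are the 15 largest rises and falls, up to 5 called members per list, every member of lists with at most 12 measured, and 23 fixed genes, of which 21 are reported here. Members that went against their list, and the further members named for their family, were named after their values were seen. Promoter windows come from RefSeq; 9563 of the 11963 genes matched by symbol. Replicate numbers were not used to pair the arrays in the main test.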

Additional observations from a re-analysis of the deposited data

How the results depend on the processing

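Over 15 alternatives, 2726 to 3624 of the genes were called in fits with 1 value per gene. Without 1 array each, calls ran from 2726 to 3146, with 145 to 170 genes at least 2-fold higher and 234 to 246 lower. Testing every probe set gave 5483 calls, 2998 higher and 2485 lower, and 683 at 2-fold or more, 244 higher and 439 lower, since it tests more features. A pseudocount of 32, which shrinks the folds of dim genes, left 91 at 2-fold or more higher. With the replicate block 3397 genes were called (1873 higher, 1524 lower), 3198 of them shared. The deviations of arrays with the same number correlated at 0.13, 0.09 and 0.02, and those of arrays with different numbers at -0.15 to 0.05. Whether the numbers mark pairs is not settled, and the main fit did not use them. Between 80.1% and 98.8% of the calls were shared with each alternative, and 1 gene changed direction, under the mean of all probe sets. Of 268 called named genes, 12 lost the call in some alternative: CDH1, HSP90AA1, IFI35, ISG15, ITGA6, JUN, PER2, PER3, PMAIP1, PSMC2, RPL11 and RPL22. Uncalled genes that gained it were CCND1, CHGB, KLK13, KRT5 and THY1. Of 49 list counts of 6 or more, 8 moved by over 1.5 times somewhere, as did 32 counts of 5 or fewer, which are unstable. Median-centring and a second quantile normalization left the median of all genes at -0.01 and 0.00; list medians that changed sign lay within 0.1 of 0. Dim signal limits the folds of genes under 52.4, and genes with 3 equal deposited values (ATF3, INSM1, MYC and WARS1) have errors that are too small.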
